A study of Mus musculus with 6 samples.

Results

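The genes described here are 10 canonical targets of the transcription factor p53 that act in signalling, RNA control, secretion and metabolism: Phlda3, Zmat3, Aen, Trp53inp1, Gdf15, Sulf2, Ephx1, Ak1, Abhd4 and Cyfip2. They were picked by gene symbol, and all 10 were found once each among the 51810 genes of the deposited series table. The measurements are mRNA read counts from 6 libraries of mouse medullary thymic epithelial cells sorted as mTEChi, the mature subset rich in class II MHC, at an age of 4 to 5 weeks. The 3 WT libraries carry the genotype label P53-WT and come from mice titled NoCre, which lack the recombinase. The 3 cKO libraries are labelled P53-cKO, a conditional deletion of Trp53, the gene for p53. Neither the Cre driver nor the deleted exons are stated in the labels, so it is not known here which cells of the cKO mice lost the gene first. Nor do they say that the libraries came from separate animals. Each p-value therefore reflects only the spread over these libraries, part of which may be technical.

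p53 binds DNA as a tetramer at paired half-sites and raises transcription of a broad set of genes when cells are under stress, and at a low level without stress. Besides cell cycle arrest and death, its targets curb growth signalling through the kinase AKT, control the stability and splicing of RNA, send signals out of the cell and adjust metabolism. In the thymus, medullary epithelial cells display antigens of other tissues to developing T cells, and the series title links p53 repression in these cells to noise in chromatin accessibility. The comparison of cKO with WT asks which of these transcripts depend on p53 in sorted cells that were not deliberately stressed, as far as the labels state.

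Promoter sequence was available for 8 of the 10 genes in RefSeq tables of build GRCm38.p6, the build of the count files. Each window ran from 250 bases before to 50 bases after an annotated start. The windows are shown by their stretch of 20 bases closest to the p53 response element consensus, a pair of half-sites of 10 bases each with no spacer, which reads the same on both strands. Capitals mark the bases that fit the consensus, and Cdkn1a and Ccng1, which fell in cKO, are shown for scale. Other p53 targets, among them Psrc1, which also fell, are not shown, so no link between fit and fall can be read from these lines.
Cdkn1a: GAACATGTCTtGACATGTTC
Ccng1: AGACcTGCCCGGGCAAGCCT
Aen: GGGCTTGTCCGGGCAAGgag
Ephx1: AGGCcAGCTTGGGCTctTgT
Ak1: cAACTTGTCTGAGCATcagC
Phlda3: GGcCcTGTCCGGGCggGTgC
Sulf2: GAACATcTTgGAAgActTTC
Gdf15: GAAtcAGTTTGGGgAgGgTT
Abhd4: GAGCAAaCagAAGgAAGCaC
Cyfip2: AGGggTGCgCAGGgAgcCCC

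Phlda3, Ephx1, Cyfip2 and Ccng1 had 1 window each, Aen, Sulf2, Gdf15, Abhd4 and Cdkn1a had 2 and Ak1 had 4, and the best stretch over a gene's windows is shown. Each is therefore set against genes with as many windows (22862 genes with 1, 3102 with 2 and 210 with 4). The stretches of Cdkn1a and Ccng1 fitted 19 of 20 bases, a level reached by 0.226% and 0.0919% of such genes. Aen came nearest among the 8 genes, with 17 of 20 bases at chr7:78895937-78895956 on the plus strand, a level reached by 10.6% of genes with 2 windows. Its site lies inside an annotated Aen exon. Ephx1 and Ak1 fitted 16 bases, reached by 30.1% of genes with 1 window and 66.2% of genes with 4. Phlda3 fitted 15 bases (76.9% of genes with 1 window), as did Sulf2, Gdf15 and Abhd4 (90.04% of genes with 2), and Cyfip2 fitted 14 (98.6% of genes with 1). Abhd4 had 4 equally good stretches in that window. An exact half-site was present in windows of Aen and Abhd4, and in 8.36% of all 32851 windows. That share is per window, and the share among genes with 2 windows was not computed. These matches are descriptions of a short window, and p53 elements can lie in introns or farther away.

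The 250 bases before the start of Phlda3 and Ephx1 are printed because these are the 2 genes with the largest differences between the groups, with the stretch listed above in capitals. The Phlda3 stretch (chr1:135765835-135766084, plus strand) has 71.2% G and C and 18 CpG dinucleotides, against medians of 52.4% and 6 over all windows. The Ephx1 stretch (chr1:181017570-181017819, minus strand) has 51.2% G and C and 3 CpG dinucleotides, lies inside the longest annotated form of the gene and overlaps none of its exons.
Phlda3: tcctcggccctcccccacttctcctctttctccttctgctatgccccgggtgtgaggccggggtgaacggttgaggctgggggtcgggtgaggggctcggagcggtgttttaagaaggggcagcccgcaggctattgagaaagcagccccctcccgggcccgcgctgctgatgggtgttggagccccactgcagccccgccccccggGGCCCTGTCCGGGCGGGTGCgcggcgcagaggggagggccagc
Ephx1: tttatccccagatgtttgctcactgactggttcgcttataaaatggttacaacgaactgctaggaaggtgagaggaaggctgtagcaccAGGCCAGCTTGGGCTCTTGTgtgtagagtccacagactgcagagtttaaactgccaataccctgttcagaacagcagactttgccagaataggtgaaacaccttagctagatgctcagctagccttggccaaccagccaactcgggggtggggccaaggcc

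The libraries held 45457892 to 50128045 counts, and each of the 10 genes had at least 699 counts in every library, so depth did not limit their detection. Trp53 itself had 4837 to 5351 counts in the WT libraries against 361 to 386 in the cKO libraries, so each library matched its genotype label. The 15 mature medullary markers summed to 33983 to 37596 CPM (read counts scaled to library size by the TMM method) in WT and 34343 to 37013 in cKO, most of it from the class II genes H2-Aa and H2-Ab1 and from Cd74. None of the 15 passed edgeR, with or without the block. Single markers lay apart between the groups, 2 of the 15 lower and 2 higher in cKO. Among all tested genes 7.28% lay apart and lower and 7.14% higher, so these few markers are not read as a difference of the list. Cldn3, a claudin gene, had 61.7 to 62.5 CPM in WT and 72.9 to 86.9 in cKO (log2 fold change 0.36, edgeR adjusted p = 0.246). Aire, the regulator of tissue antigen expression, named after its values were seen, had 1201 to 1417 CPM in WT and 822 to 1160 in cKO (−0.32, edgeR adjusted p = 0.516), and its deposited TPM overlapped. The 8 cortical epithelium markers summed to 1116 to 1198 CPM in WT and 1051 to 1142 in cKO. Among them Foxn1, a transcription factor gene of thymic epithelium, had 181 to 209 CPM in WT and 128 to 147 in cKO (−0.54, edgeR adjusted p = 0.0506), and it fell with the block (adjusted p = 0.00242). All 38 markers of thymocytes, B cells, myeloid cells, fibroblasts and endothelium, and red cells passed the filter on low counts, and none of these lists had a member past the edgeR threshold without the block. With the block 1 did, the alpha globin gene Hba-a2, which fell (log2 fold change −0.64, edgeR adjusted p = 0.0221, against −0.61 and 0.341 without it). The 7 red cell genes summed to 83.5 to 90.3 CPM in WT and 57.2 to 82.8 in cKO, and 88 ribosomal protein genes took at least 1.05% of counts in each WT library and at most 0.995% in each cKO library. Neither range overlapped between the groups. The myeloid list had a larger sum, 511 to 699 CPM in WT and 622 to 916 in cKO. The thymocyte list summed to 70.7 to 131 CPM in WT and 73.4 to 126 in cKO. These sums, and those of the B cell list and the fibroblast and endothelium list, overlapped between the groups. The part of these markers, red cell and ribosomal protein genes in the results below was not tested. In bulk libraries, fewer cells expressing a gene and less RNA per cell cannot be told apart.

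Levels between genes were compared in the authors' deposited TPM values, which divide by exon length and sum to the same total in every library. In WT cells Phlda3 stood highest at 86.9 ± 16.0 TPM (SD, n = 3), followed by Trp53inp1 at 65.7 ± 6.09 TPM, and their ranges over the WT libraries overlapped. Gdf15 (32.6 ± 5.72 TPM), Ephx1 (29.5 ± 3.16), Abhd4 (26.0 ± 4.93) and Cyfip2 (23.5 ± 0.930) came next, each overlapping its neighbour in that order. Trp53inp1 lay apart from Gdf15. Sulf2 (18.6 ± 0.775 TPM) lay apart from both Cyfip2 above it and Zmat3 below it. Zmat3 (16.5 ± 0.640 TPM), Ak1 (15.6 ± 3.21) and Aen (15.0 ± 1.51) closed the order, and each overlapped the next. In cKO cells Trp53inp1 (56.3 ± 3.21 TPM) had a higher mean than Phlda3 (49.6 ± 6.45 TPM), with overlapping ranges.

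**Figure D1:**
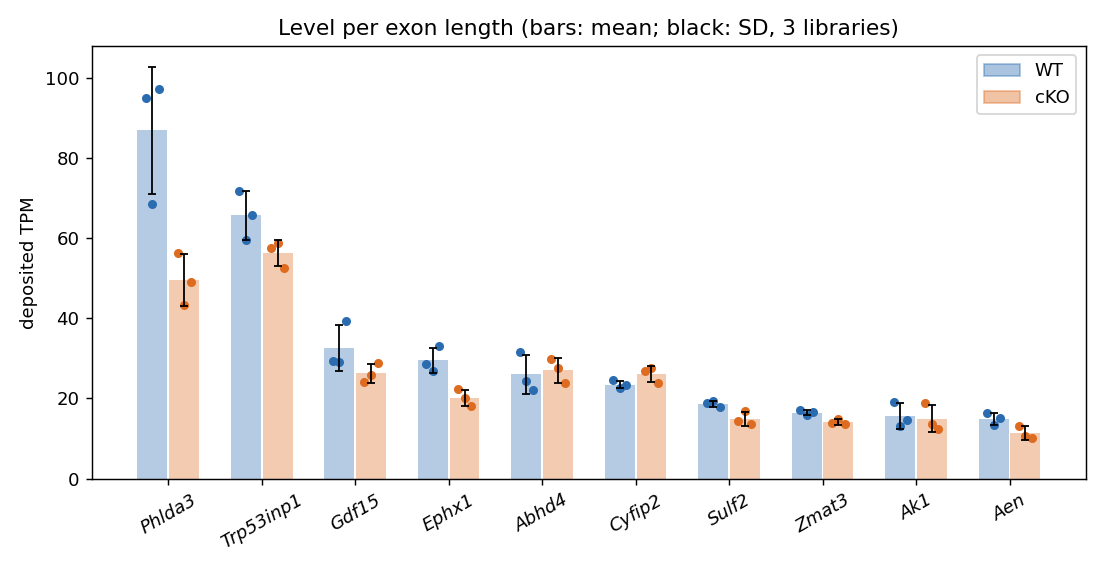
Deposited TPM of the 10 genes in order of their WT mean, with bars for the mean of 3 libraries, black lines for the SD and points for single libraries. Phlda3 and Trp53inp1 stand above the others, which all have WT means under 33 TPM, and the gap between WT (blue) and cKO (orange) is widest for Phlda3.

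Over all 28543 genes that passed the filter on low counts, 0.0596% passed the edgeR quasi-likelihood test at an adjusted p under 0.05 (0.0350% lower and 0.0245% higher in cKO), and 0 of the 10 genes did. All 10 passed the filter. With the replicate number as a block, Phlda3 and Ephx1 fell and 0 of the 10 rose, where 0.228% of all tested genes were called lower and 0.483% higher. DESeq2 called the same 2 genes lower (0.241% of genes with an adjusted p), and limma-voom called 0 of the 10. At an unadjusted edgeR p under 0.05, 7 of the 10 were lower and 0 higher, against 4.23% lower and 4.28% higher among all tested genes. The median log2 fold change (cKO over WT) of the 10 genes was −0.29, and that of all tested genes was −0.01. In 6 of the 10 genes every cKO library lay below every WT library in TMM-scaled CPM, which held for 7.28% of all tested genes. The opposite held for Cyfip2, and for 7.14% of all tested genes.

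**Figure D2:**
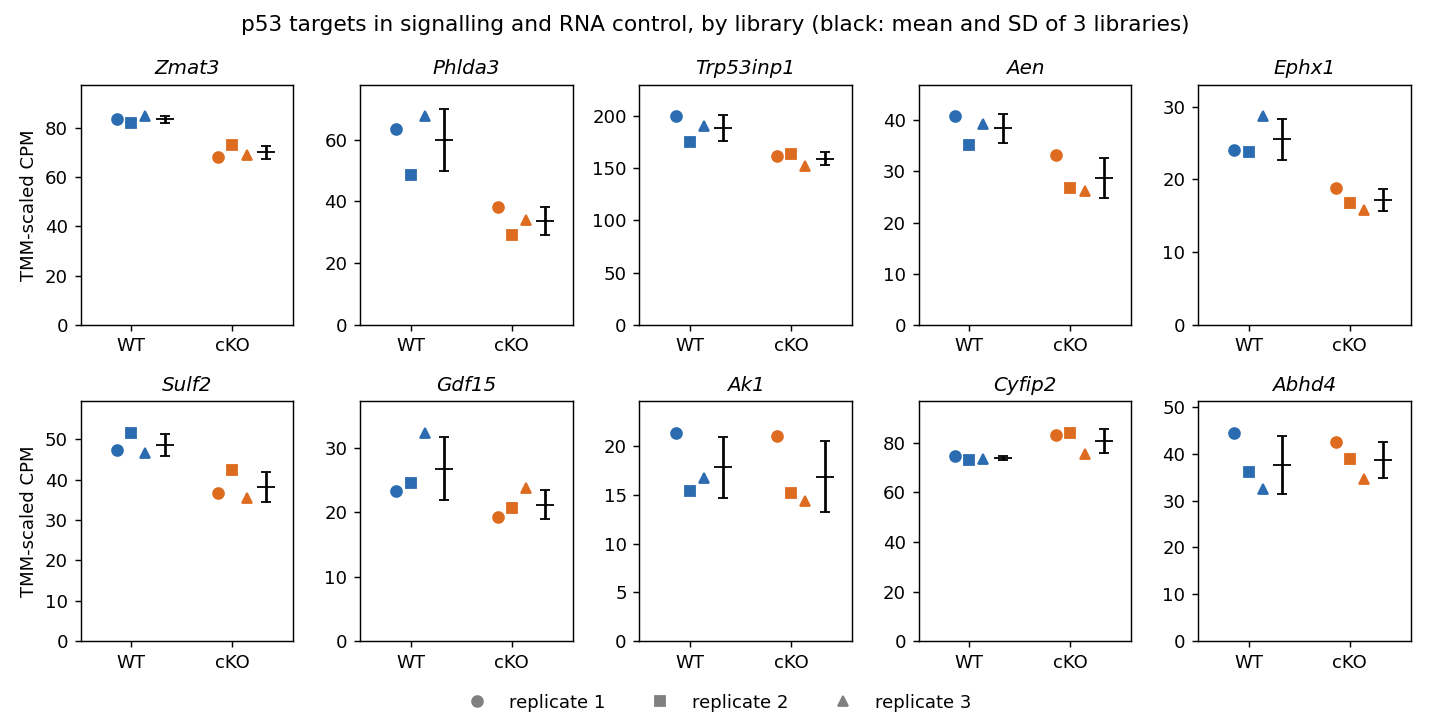
TMM-scaled CPM of each gene in the 3 WT libraries (blue) and the 3 cKO libraries (orange), with the replicate number as the symbol and the mean and SD in black; every axis starts at 0. The groups are apart and cKO is lower for Zmat3, Phlda3, Trp53inp1, Aen, Ephx1 and Sulf2, whereas they overlap for Gdf15, Ak1 and Abhd4.

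Phlda3 encodes a small protein made of little more than a pleckstrin homology domain, which competes with AKT for membrane phosphoinositides and so restrains AKT. The gene (ENSMUSG00000041801, chromosome 1, 135766119 to 135769136 in mm10) had 63.6, 48.6 and 67.6 CPM in replicates 1 to 3 of WT. The cKO replicates 1 to 3 had 38.1, 29.1 and 34.0 CPM. All cKO values lay below all WT values, and replicate 2 was the lowest library of both groups. The mean was 59.9 ± 10.04 CPM for WT, against 33.7 ± 4.49 CPM for cKO (SD over 3 libraries). The level in cKO was 1.78-fold lower (log2 fold change −0.83, SE 0.134, 95% interval −1.12 to −0.54), with an edgeR adjusted p of 0.0560, just outside the threshold. With the replicate block the log2 fold change was −0.82 (SE 0.0916, edgeR adjusted p = 1.43e-04). Leaving out 1 library at a time moved it between −0.96 and −0.73. Without WT library 2 the gene passed (edgeR adjusted p = 0.0141), and without any other single library it did not, with adjusted p from 0.0567 (without cKO library 1) to 0.338 (without WT library 3).

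The RNA control and nuclear genes had smaller differences. Zmat3 encodes a zinc finger protein that binds AU-rich elements in RNA and takes part in RNA stability and splicing (ENSMUSG00000027663, chromosome 3, 32334792 to 32366014). It had 83.6, 81.9 and 84.8 CPM in WT and 68.2, 72.9 and 68.9 CPM in cKO. The 3 WT libraries had a coefficient of variation of 1.70%, and all cKO libraries were below them. Its log2 fold change was −0.25 (SE 0.0788, 95% interval −0.42 to −0.08, edgeR unadjusted p = 0.00710, adjusted p = 0.397), which did not pass.

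Aen encodes an exonuclease that promotes DNA fragmentation during apoptosis (ENSMUSG00000030609, chromosome 7, 78895854 to 78911209). It had 40.8, 35.3 and 39.2 CPM in WT and 33.2, 26.8 and 26.1 CPM in cKO. The groups did not overlap, with cKO library 1 nearest to the WT range. The log2 fold change was −0.42 (SE 0.115, 95% interval −0.67 to −0.17, edgeR adjusted p = 0.310), and with the block the adjusted p was 0.0545.

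Trp53inp1 encodes a protein of nuclear bodies and autophagosomes that supports phosphorylation of p53 (ENSMUSG00000028211, chromosome 4, 11156431 to 11174379). It had the highest counts of the 10 genes, with 199.8, 175 and 190.2 CPM in WT and 161, 164 and 152 CPM in cKO. Each cKO library lay below the lowest WT library, with WT library 2 nearest. Its log2 fold change was −0.25 (SE 0.0791, 95% interval −0.42 to −0.08, edgeR adjusted p = 0.409).

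Of the 2 genes that act outside the cell, Gdf15 encodes a secreted stress cytokine of the TGF-beta superfamily (ENSMUSG00000038508, chromosome 8, 70629393 to 70632456). It had 23.4, 24.6 and 32.4 CPM in WT and 19.3, 20.7 and 23.7 CPM in cKO. WT library 3 was well above the others, and cKO library 3 lay just above WT library 1, so the groups overlapped on this scale. In deposited TPM they did not overlap (29.2 to 39.2 in WT, 24.0 to 28.8 in cKO). The log2 fold change was −0.34 (SE 0.138, edgeR adjusted p = 0.537), and without WT library 3 it was −0.18.

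Sulf2 encodes an extracellular sulphatase that removes sulphate groups from heparan sulphate chains and thereby changes their binding of growth factors (ENSMUSG00000006800, chromosome 2, 166073089 to 166155663). It had 47.4, 51.6 and 46.6 CPM in WT and 36.6, 42.4 and 35.4 CPM in cKO. Replicate 2 was the highest library of both groups, and the groups did not overlap. The log2 fold change was −0.35 (SE 0.0992, 95% interval −0.56 to −0.13, edgeR adjusted p = 0.335), and the block gave an adjusted p of 0.0864. Exons of Ncoa3 on the other strand cover 2.62% of the Sulf2 exon bases, and strand was ignored in counting, so a small part of its counts may belong to Ncoa3.

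Among the enzymes, Ephx1 encodes microsomal epoxide hydrolase, which turns reactive epoxides into diols (ENSMUSG00000038776, chromosome 1, 180976210 to 181020904). It had 24.0, 23.8 and 28.7 CPM in WT and 18.8, 16.8 and 15.8 CPM in cKO. The groups did not overlap, and the widest gap was between WT library 3 and cKO library 3. The means were 25.5 ± 2.76 and 17.1 ± 1.54 CPM (SD, n = 3 each), 1.49-fold lower in cKO (log2 fold change −0.57, SE 0.121, 95% interval −0.83 to −0.31, edgeR adjusted p = 0.167). With the block the log2 fold change was −0.57 (SE 0.117, edgeR adjusted p = 0.0285). Leaving out 1 library at a time gave values between −0.64 and −0.48, none of which passed.

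Ak1 encodes a cytosolic adenylate kinase that balances ATP, ADP and AMP (ENSMUSG00000026817, chromosome 2, 32621758 to 32635058). It had 21.4, 15.4 and 16.8 CPM in WT and 21.1, 15.2 and 14.4 CPM in cKO. Replicate 1 was highest in both groups, and the groups overlapped over most of their range. The log2 fold change was −0.08 (SE 0.167) with a 95% interval of −0.44 to 0.28 (edgeR adjusted p = 0.944). That interval does not reach the estimate for Ephx1 or Phlda3, but it overlaps the Ephx1 interval of −0.83 to −0.31. The difference between these genes was not tested.

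Abhd4 encodes a serine hydrolase of N-acyl phospholipid metabolism (ENSMUSG00000040997, chromosome 14, 54254188 to 54270637). It had 44.5, 36.2 and 32.4 CPM in WT and 42.5, 38.8 and 34.7 CPM in cKO. The cKO range lay within the WT range. The log2 fold change was 0.04 (SE 0.125, 95% interval −0.23 to 0.31, edgeR adjusted p = 0.967).

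Cyfip2, the remaining gene, encodes a subunit of the WAVE complex, which starts branching of actin filaments (ENSMUSG00000020340, chromosome 11, 46193850 to 46312859). It had 74.8, 73.3 and 73.6 CPM in WT and 83.0, 84.1 and 75.4 CPM in cKO. All cKO libraries were above all WT libraries on this scale, cKO library 3 only just, whereas in deposited TPM the groups overlapped. The log2 fold change was 0.13 (SE 0.0816, 95% interval −0.05 to 0.31, edgeR adjusted p = 0.715), so Cyfip2 and Abhd4 were the 2 genes with estimates above 0.

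**Figure D3:**
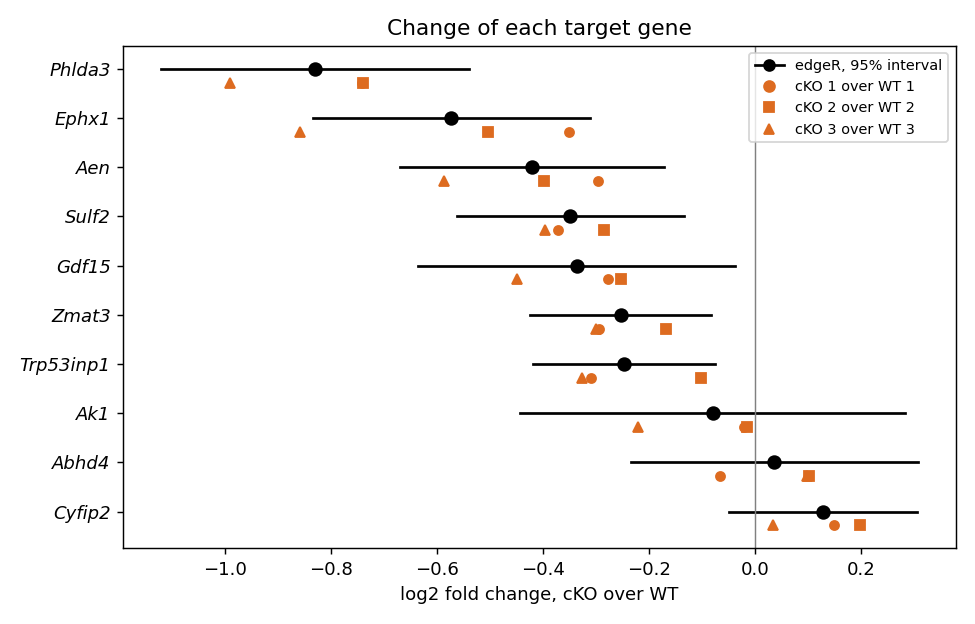
Log2 fold change of cKO over WT for each gene from edgeR (black point) with its 95% interval (black line), and the log2 ratio of TMM-scaled CPM between same-numbered cKO and WT libraries (orange symbols). The intervals of the 7 genes from Phlda3 to Trp53inp1 lie below 0, whereas those of Ak1, Abhd4 and Cyfip2 include 0; the intervals are not adjusted for the number of genes tested.

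Paralogues of these genes were examined as a list of 22, all of which passed the filter. None passed the edgeR test in either direction, 0 passed with DESeq2, and the median log2 fold change was 0.08. At an unadjusted edgeR p under 0.05, 1 of the 22 was lower and 1 higher, near the 4.23% and 4.28% of all tested genes. Phlda1, the most abundant paralogue of Phlda3, had 9.53 ± 0.939 TPM in WT (SD, n = 3), so Phlda3 stood 9.11-fold higher. Its log2 fold change was 0.09 (SE 0.140, edgeR adjusted p = 0.914). Ephx2, the soluble epoxide hydrolase gene, had 26.4 ± 2.56 TPM in WT, near the level of Ephx1, and a log2 fold change of −0.03 (SE 0.153, edgeR adjusted p = 0.982).

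Other families had a paralogue at or above the level of the p53 target. Zmat2 had 79.5 ± 1.72 TPM in WT, 4.83-fold above Zmat3, and a log2 fold change of −0.03. Trp53inp2 had 112 ± 11.4 TPM (log2 fold change 0.12), Isg20, an exonuclease gene related to Aen, 29.99 ± 1.24 TPM (0.14), and Cyfip1 33.8 ± 2.44 TPM (0.10). Sulf1, at 6.48 ± 1.24 TPM (0.15), and Abhd5, at 14.9 ± 0.909 TPM (−0.01), were below Sulf2 and Abhd4. The smallest p of the list was that of Ak8 (log2 fold change −0.52, SE 0.205, edgeR adjusted p = 0.523).

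Pathways in which the 10 genes act were read from 4 further lists, and no gene of them passed edgeR, with or without the block, or DESeq2. Of the 20 genes of PI3K and AKT signalling, the pathway that Phlda3 restrains, 15 had log2 fold changes above 0, with a median of 0.06 and a range of −0.05 to 0.30. Of all 28543 tested genes 13999 were above 0, as were 13 of 22 paralogues, 6 of 10 RNA-binding and 10 of 15 heparan sulphate genes. At an unadjusted edgeR p under 0.05, 2 of the 20 signalling genes were higher and 0 lower, against 4.28% and 4.23% of all tested genes. Pik3cb, a catalytic subunit of PI3K, had the smallest p (0.30, SE 0.1002, edgeR adjusted p = 0.420). The 10 genes for proteins that bind AU-rich or related RNA elements had a median of 0.07, and Pum2 had the smallest p (0.14, SE 0.0740, edgeR adjusted p = 0.644). The 7 other WAVE complex genes had a median of 0.10, with 5 above 0, and Brk1 had the smallest p (0.16, SE 0.102, edgeR adjusted p = 0.712). The 15 genes for synthesis, core proteins and cleavage (Hpse) of heparan sulphate, the substrate of Sulf2, had a median of 0.03. Sdc4, a cell surface proteoglycan gene, had the smallest p of that list (0.19, SE 0.0832, edgeR adjusted p = 0.583). At an unadjusted p under 0.05 there were 0 genes in the RNA-binding and WAVE lists and 1 higher in the heparan sulphate list.

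Of 36 other direct p53 targets, 3 fell by the edgeR test over all genes, 0 rose and 33 did not pass. Among all tested genes 0.0350% fell and 0.0245% rose. The median log2 fold change of the 36 was −0.14, and 27 of them were below 0, against 14544 of all 28543 tested genes. Cdkn1a, the p21 cell cycle inhibitor, had a log2 fold change of −0.90 (SE 0.0782), Ccng1, cyclin G1, −0.80 (SE 0.0786) and Psrc1, a spindle protein gene, −1.45 (SE 0.217). Phlda3, at −0.83, lay in the range of these 3, and the block added Eda2r, Gtse1 and Trp53cor1 to the fallen genes and Btg2 to the risen, for 6 lower and 1 higher. With the block 0.228% of all tested genes were called lower and 0.483% higher. Pcbp4 and Rbm38, 2 further p53 targets that bind RNA, had −0.20 and −0.16 and did not pass (edgeR adjusted p = 0.702 and 0.794). Pcbp4, Rbm38 and the 4 genes added by the block were named after their values were seen.

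**Figure D4:**
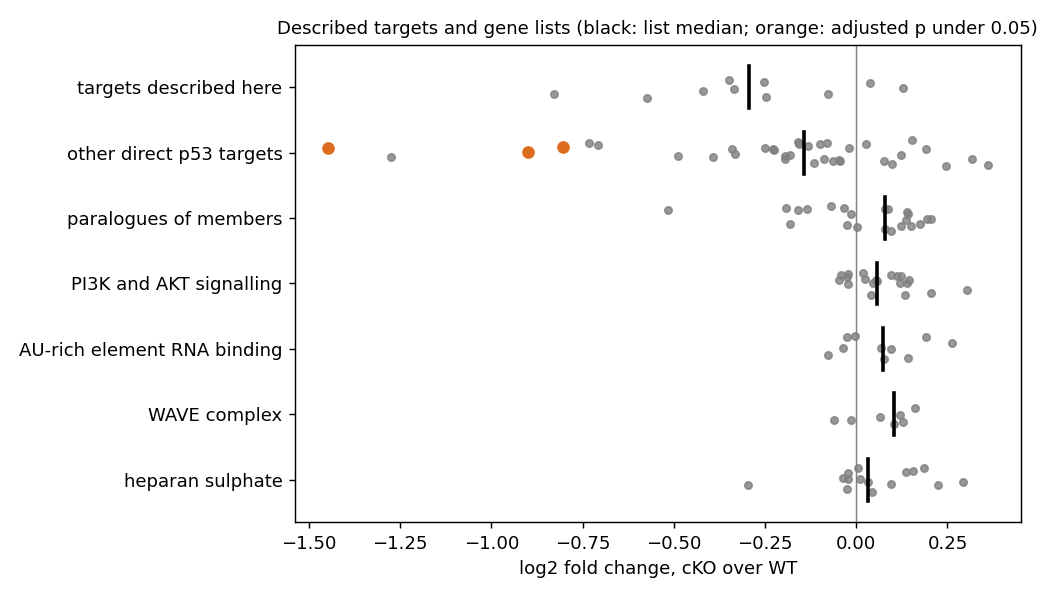
Log2 fold change of cKO over WT of every gene in the 10 targets described, the 36 other direct p53 targets, the paralogues and 4 pathway lists, with the list median as a black line and genes past the edgeR threshold in orange. The only orange points are the 3 other direct targets Psrc1, Cdkn1a and Ccng1, and the medians of the paralogue and pathway lists lie between 0.03 and 0.10.

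Genes with a profile over the 6 libraries closest to the 3 targets with the largest differences were found by the root mean square difference of log2 CPM, each gene centred on its own mean, among 15812 genes of at least 5 CPM. For Ephx1 the nearest was Bbc3, the pro-apoptotic p53 target that encodes PUMA (difference 0.0523 on the log2 scale), followed by Ptp4a3 (0.0738) and Gm15518 (0.0772). Bbc3 had 23.5 CPM in WT and 16.8 in cKO on average (log2 fold change −0.49, SE 0.114, edgeR adjusted p = 0.226). For Phlda3 the nearest were Atp1b2 (0.133), Irx4 (0.139) and Muc2 (0.144). For Aen they were Cdc7 (0.0405), which encodes a kinase of replication origins, Stmn1 (0.0636) and Lmnb1 (0.0636). None of these 9 genes passed the edgeR test (adjusted p between 0.120 and 0.434). The measure rests on 6 libraries and includes the difference between the groups.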

How the data were processed

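Whole-number counts per gene were deposited for each of the 6 libraries. TopHat2 2.1.1, SAMtools 1.9, Subread 2.0.1 and the build mm10 are listed per the submitters' processing notes. Per the file headers, featureCounts 2.0.0 counted exons of Ensembl release 99 without regard to strand, counted each mate of a pair separately, gave reads over several genes to each of them and left out reads with several alignments. The series table holds the same counts for 51810 of 55385 genes, and TPM that the authors made from counts and exon length.

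The deposited counts were tested with edgeR 4.0.16 in R 4.3.3 (TMM, filterByExpr, robust quasi-likelihood F test), with Benjamini-Hochberg adjustment over 28543 genes. Each SE was derived from the F statistic (absolute log2 fold change over its square root). DESeq2 1.42.0, limma 3.58.1 and other scalings, filters and subsets were alternatives. The edgeR procedure without the block was tested on simulated data that held no replicate effect.

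Replicate numbers in the titles are shared by the groups. Deviations from group means correlated at 0.374, 0.201 and 0.259 for numbers 1 to 3 (15812 genes). Between unlike numbers the correlations ran from −0.353 to 0.126, the highest for WT library 2 with cKO library 3. The numbers were therefore taken as pairs, most weakly for number 2. A second measure, the chi-square per gene between the counts of 2 libraries, followed the numbers only in part. It was 14.9 for WT library 1 with cKO library 1, the nearest cKO library. WT library 2 was nearer to cKO library 3 (19.3) than to cKO library 2 (22.3). For cKO library 3 the value with WT library 3 was 22.9, so WT library 2 was nearer to it. A fit with the number as a block is given where it changes a call, and also for Aen, Sulf2 and some lists, where it changed none. For Zmat3, Trp53inp1 and Gdf15 the block gave an edgeR adjusted p of 0.181 to 0.185. The pairing, and with it every block result, rests on these correlations in the same data, since the labels do not explain the numbers.

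The 10 genes and the lists were chosen with earlier results of these data known. Named genes were the 10 targets, Trp53, list genes past the threshold or with the smallest p, the most abundant paralogue of each family, and the 3 nearest profiles to the 3 targets with the largest difference. One gene that this rule names is not reported here. All intervals cover the spread between libraries. Every library pair differed by more than sampling noise (chi-square per gene 14.6 to 30.8).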

Additional observations from a re-analysis of the deposited data

How the results depend on the processing

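Over 18 alternatives, Phlda3, Ephx1, Aen, Sulf2, Gdf15, Zmat3 and Trp53inp1 had log2 fold changes below 0 in every fit, and Cyfip2 above 0 in every fit. Ak1, −0.08 in the edgeR fit, turned to 0.071 without WT library 1 and 0.025 without cKO library 3, and ranged from −0.27 to 0.071 when 1 library was left out. Abhd4, 0.04 in that fit, turned to −0.061 without WT library 3 and −0.034 without cKO library 1, with a range of −0.061 to 0.17. The number of the 10 genes called lower rose from 0 to 2 with DESeq2, 2 with no filter on low counts and 2 with the replicate block, and ranged from 0 to 1 when 1 library was left out. No other fit called one.

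Other direct p53 targets called lower, 3 in the edgeR fit, numbered 7 with DESeq2, 6 with no filter, 6 with the replicate block and 0 in both limma fits on log2 TPM (pseudocounts 1 and 0.1), and 1 was called higher with the replicate block. Over all genes, 10 lower and 7 higher became 49 and 131 with DESeq2, 52 and 108 with no filter, 65 and 138 with the replicate block, 5 and 0 with limma-voom, 6 and 0 without robust estimation, and 1 and 0 in both limma fits on TPM. When 1 library was left out, 5 to 9 genes were lower and 0 to 7 higher. The counts moved most without WT library 1 (6 and 1), WT library 3 (6 and 0) and cKO library 2 (5 and 2), and 9 and 3 were called without WT library 2. The cause of these shifts was not tested. The block changed no call among the 10 genes other than those of Phlda3 and Ephx1.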

Other observations

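The same-numbered pairs of libraries did not contribute equally. The ratio of cKO to WT was lowest in pair 3 for 9 of the 10 genes, in pair 1 for Abhd4 and in pair 2 for none. Among all 28543 genes tested the lowest ratio fell in pair 3 for 33.6%, and among the 36 other direct p53 targets for 17. For Ephx1 the log2 ratio was −0.35 in pair 1, −0.50 in pair 2 and −0.86 in pair 3. For Phlda3 it was −0.74 in pair 1, −0.74 in pair 2 and −0.99 in pair 3. The log2 ratio of Trp53 was −3.83, −3.70 and −3.88 in pairs 1 to 3. These ratios rest on 386, 361 and 369 Trp53 counts in cKO libraries 1 to 3, and the small gap between pairs 1 and 3 was not tested. The unequal contribution of the pairs was noticed in the data, and the part of the Trp53 level in it was not tested.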
